A study of Bos grunniens and Bos grunniens x Bos taurus with 2 samples.

Results

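Complement C1q and macrophage receptor genes were followed across the cells of a yak testis and a cattle-yak testis. The 8 genes were taken by symbol from the 26961 features of the gene tables, and each symbol matched 1 feature. C1QA, C1QB and C1QC encode the chains of C1q, and CSF1R encodes the receptor for the growth factors CSF1 and IL34. CD163 is a scavenger receptor for haemoglobin bound to haptoglobin, MSR1 is a class A scavenger receptor, CD68 is a glycoprotein of the lysosomal membrane, and F13A1 is the A subunit of coagulation factor XIII.

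C1q opens the classical complement pathway. It binds antibody complexes, dying cells and other targets, activates the proteases C1R and C1S, and tags material for uptake by phagocytes. Unlike most complement proteins, which come mainly from the liver, C1q is made largely by macrophages and related myeloid cells, and its chains are encoded side by side in the genome. Testis macrophages lie in the interstitium and around the seminiferous tubules, depend on CSF1R signalling, and are known for keeping an immune-tolerant environment and for clearing cell debris.

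The study profiled testis tissue after sexual maturity with 10x Genomics droplets, with 1 library from yak (Bos grunniens) and 1 from cattle-yak, the cross of yak and cattle. The yak tissue came from 1 healthy male 4 years old per the study's methods, while the number and age of cattle-yak animals are not given in the sources used here. Both tissues were frozen, thawed, digested with collagenase, hyaluronidase and then trypsin, and filtered, so every level below is that of cells that survived this route. The labels give no treatment or engineered allele for either group. With 1 library per group there is no replicate, and every comparison between yak and cattle-yak compares 2 libraries, not the animals' genotypes.

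The yak library held 11991 cell barcodes and 60816600 unique molecular identifiers (UMIs, each standing for 1 captured transcript), with a median of 2533 per cell. The cattle-yak library held 8930 barcodes and 43774841 UMIs, with a median of 3155. After limits on genes, UMIs and mitochondrial share, 10324 yak and 7092 cattle-yak cells were kept. Mitochondrial transcripts took 13.1% of yak and 22.2% of cattle-yak UMIs, and 2 rRNA features took a further 7.10% and 12.7%. The libraries shared 24 barcodes, of which 0 were macrophage-like cells in either. One label calls the material germ cells, yet classes named T/NK-like, EC-like (endothelial), MC-like (from smooth muscle genes such as ACTA2) and stromal-like were all present. Levels are given as CPM, the UMIs of a gene per 1000000 summed UMIs of a cell class, values in brackets after them are exact 95% Poisson intervals, and shares of cells carry exact binomial intervals. Both kinds cover counting error only. CPM was not scaled by transcript length, so levels of single genes were compared within a gene. Sums over gene lists, shares of such sums, and UMIs of a gene set against C1q UMIs do join different genes. These describe captured UMIs only.

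Cells were clustered without the 8 genes and without the 87 pathway genes listed for this report. One cluster per library was named macrophage-like from other markers, with 216 cells in yak (2.09% of kept cells, 1.82 to 2.39) and 98 in cattle-yak (1.38%, 1.12 to 1.68). Of 19 naming markers 11 had a symbol in the annotation. With no limit on counts, 10 of them in yak and 11 in cattle-yak were higher in the class by a log2 ratio of at least 1. The exception in yak was CD14, with 5 UMIs in the class and a log2 ratio of 0.77. AIF1, a gene of activated macrophages, was at 1103 CPM in yak and 909.7 CPM in cattle-yak macrophage-like cells, and the phagocyte oxidase gene CYBB at 185 and 107 CPM. The myeloid transcription factor gene SPI1 was at 16.5 CPM in yak macrophage-like cells and 0.113 CPM in other cells, against 13.9 and 0.0387 CPM in cattle-yak. Since the class was named from these same markers, their levels describe it and are no check of the label. The macrophage-like cells had median depths of 3110 and 3934.5 UMIs.

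All 8 genes were higher in macrophage-like cells than in the other kept cells, in both libraries. The C1q genes, CSF1R, MSR1 and F13A1 stood at least 165 times above the level elsewhere, CD163 followed, and CD68 was about an order of magnitude higher in this class while most of its transcripts lay elsewhere. Higher meant a log2 ratio of at least 1 after adding 1 CPM to each side, for genes with at least 50 counts. Across all genes tested, 8.28% passed in that direction in yak (1059 of 12795) and 10.1% in cattle-yak (1132 of 11157), beside 8 of 8 members in each. The 8 were chosen as macrophage genes with earlier results of these data known, so this count describes them and is no independent support. The paper also used C1QA and CSF1R as markers of its yak macrophage cluster. The median log2 ratio of the members was 7.42 in yak and 7.89 in cattle-yak, where that of all genes was -0.42 and -0.38.

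C1QA, the A chain, reached 1601 CPM in yak macrophage-like cells and 3.36 CPM in other cells, a 477-fold difference (395 to 581). In cattle-yak it reached 1819 against 4.53 CPM, a 402-fold difference (330.4 to 492). In yak the ratio of C1QA was the highest of all 12795 genes tested, and C1QB and C1QC came next. C1QB stood at 905 against 2.03 CPM in yak and at 1184 against 3.06 CPM in cattle-yak. C1QC stood at 571 against 1.69 CPM and at 870.2 against 3.10 CPM. Macrophage-like cells held 91.4%, 90.8% and 88.2% of all kept C1QA, C1QB and C1QC UMIs in yak, and 87.0%, 86.6% and 82.4% in cattle-yak. The macrophage-like class, 2.09% of kept yak cells, thus held 90.6% of their C1q UMIs.

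The receptors followed the same class. CSF1R was at 835 CPM in yak macrophage-like cells and 3.52 CPM in others, and at 689 and 1.63 CPM in cattle-yak. MSR1 was at 295 against 0.874 CPM and at 197 against 0.310 CPM. These genes placed 84.0% and 88.2% of their yak UMIs in the class, and 87.6% and 91.4% of their cattle-yak UMIs. CD163 was at 78.7 against 1.21 CPM in yak, a 64.9-fold difference (43.3 to 98.2), and at 193 CPM in cattle-yak, a 161-fold difference from other cells (105 to 251). The class held 59.0% of yak and 72.8% of cattle-yak CD163 UMIs.

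F13A1, whose product cross-links fibrin, was at 590.4 against 3.58 CPM in yak and at 629 against 0.774 CPM in cattle-yak. The level in macrophage-like cells was alike, and the fold to other cells was 165 (135 to 202) in yak and 812 (516 to 1351) in cattle-yak. CD68 was the exception of the group. It was at 48.2 CPM in yak macrophage-like cells and 51.1 CPM in cattle-yak ones, against 5.24 and 5.38 CPM in other cells, and the class held only 17.0% and 13.7% of its UMIs.

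**Figure D1:**
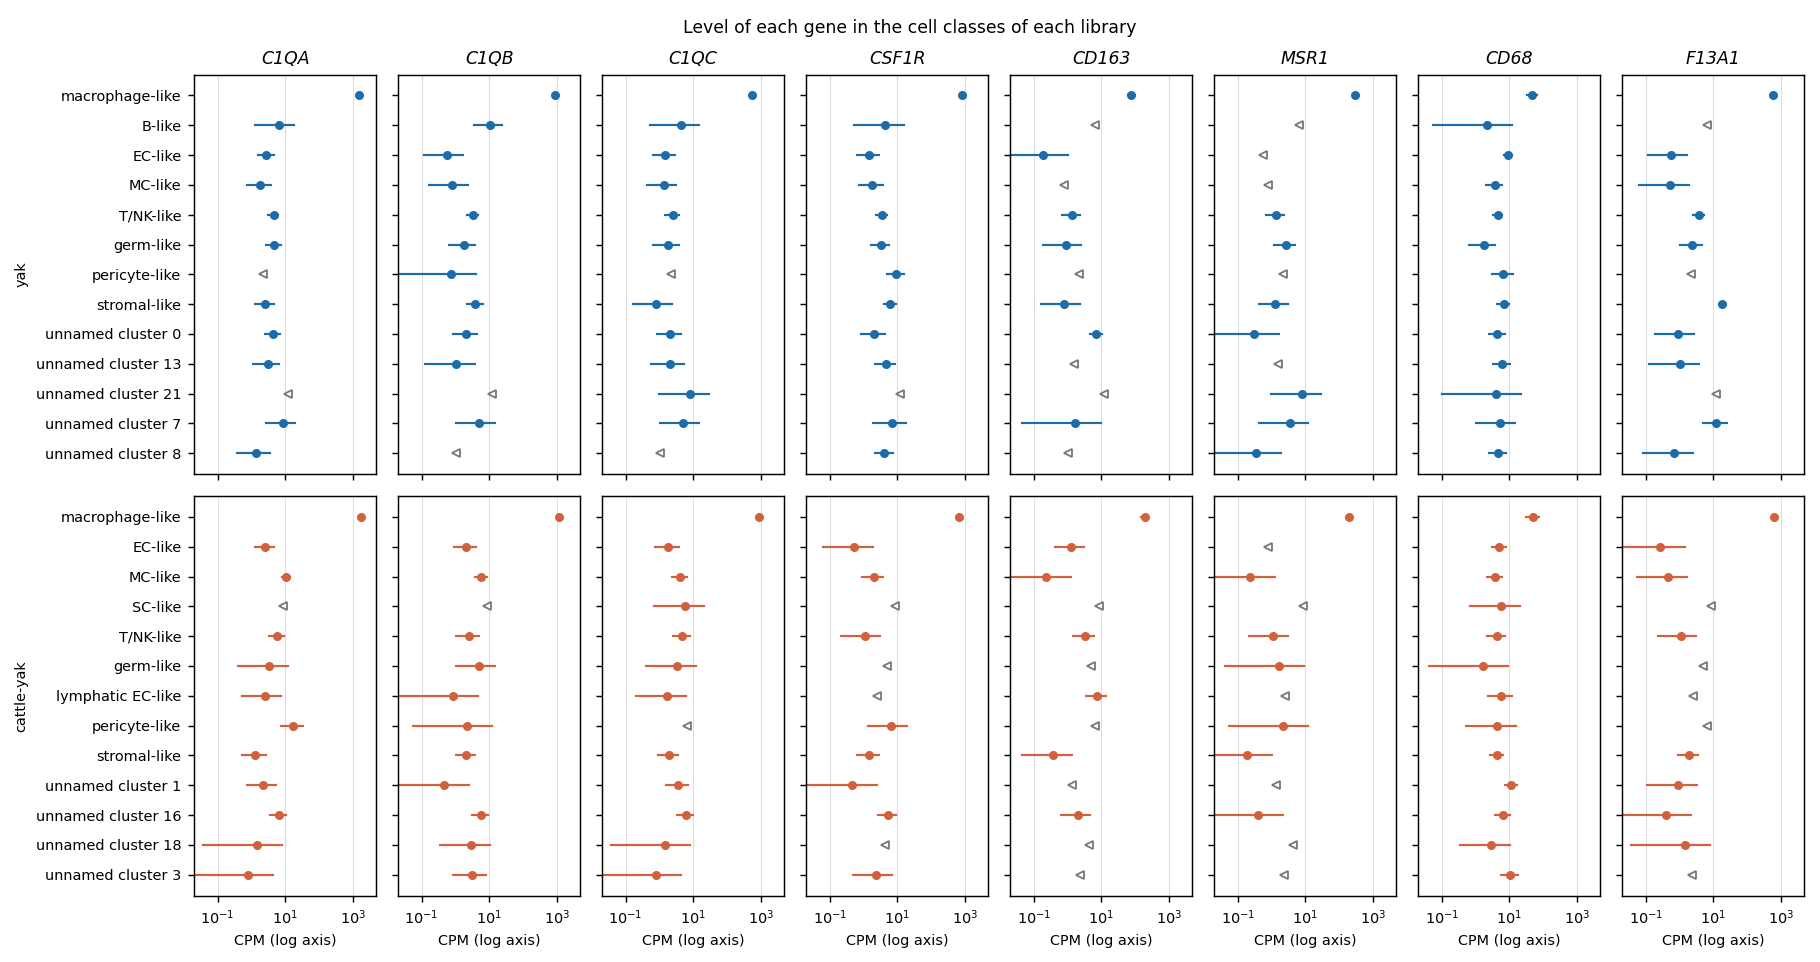
CPM (log axis) of each of the 8 genes in every cell class of at least 50 cells, yak above and cattle-yak below. Dots are levels, lines exact 95% Poisson intervals for counting error, and open triangles mark classes with 0 counts at the level of 3 counts. Every gene is highest in macrophage-like cells, with C1QA at 1601 and 1819 CPM and CD68 at 48.2 and 51.1 CPM.

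Below the macrophage-like cells all classes were low. In the other classes of at least 50 cells the highest summed C1Q levels were 21.3 CPM (10.2 to 39.2) in yak B-like cells, from 10 UMIs, and 20.7 CPM in cattle-yak MC-like cells. C1QA was next highest in cattle-yak pericyte-like cells at 17.3 CPM, from 8 UMIs. In yak T/NK-like cells, which should lack these genes, the summed C1Q genes were at 10.3 CPM and 0.963% (0.668 to 1.34) of cells thinned to 1000 UMIs had a C1Q UMI, at a median depth of 1939 before thinning. Cattle-yak T/NK-like cells gave 12.9 CPM and 0.829% (0.380 to 1.57), at a median of 2298.5. Levels of this size elsewhere were read as background.

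In cattle-yak 3 cells held 129 of the 276 C1Q UMIs outside the class, while in yak 2 cells held 26 of 251. In cattle-yak, MC-like cells carried 92 C1Q UMIs, and 80 of them were in 1 cell with 8882 UMIs in all. Another 37 of the 45 C1Q UMIs of unnamed cluster 16, led by TNFRSF21, HIGD1B and KCNJ8, were also in a single cell. Leaving out cells with at least 10 C1Q UMIs lowered the level in cattle-yak cells outside the class from 10.7 to 5.70 CPM, and in yak from 7.08 to 6.34 CPM. The chains were counted in similar proportions inside and outside the class. In yak C1QA, C1QB and C1QC made up 52.0%, 29.4% and 18.6% of C1q UMIs in macrophage-like cells and 47.4%, 28.7% and 23.9% in other cells. In cattle-yak the shares were 47.0%, 30.6% and 22.5% inside and 42.4%, 28.6% and 29.0% outside.

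CD163, F13A1, CSF1R and CD68 each had a second class in yak whose ratio to T/NK-like cells had an interval above 1. Each class was picked as second highest on these same counts, so the interval describes it and is no independent support. For thinned shares of cells, the intervals of these classes overlapped those of T/NK-like cells for all but F13A1. CD163 was next highest in yak in unnamed cluster 0, led by MMRN1, CCL21 and PROX1, with 24 UMIs in 24 of 717 cells and 7.07 CPM (4.53 to 10.5). This was 5.25 times the T/NK-like level (2.48 to 11.9). In cattle-yak it was next highest in the lymphatic EC-like class, with 9 UMIs in 9 of 305 cells and 7.54 CPM (3.45 to 14.3), 2.34 times the T/NK-like level with an interval of 0.823 to 6.66. Unnamed cluster 0 had 82.8 CD163 UMIs for every 100 C1Q UMIs, where yak macrophage-like cells had 2.56 and yak T/NK-like cells 13.1. Thinned to 1000 UMIs, 0.430% (0.0887 to 1.25) of cells in unnamed cluster 0 and 0.170% (0.0624 to 0.370) of T/NK-like cells had a CD163 UMI, intervals that overlap, with median depths of 4243 and 1939 before thinning. Another scavenger receptor gene, STAB1, was highest in the same clusters, at 381 CPM in yak and 619 CPM in cattle-yak.

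F13A1 had its second place in stromal-like cells of the yak. There it gave 70 UMIs in 42 of 915 cells, with at most 6 in a cell, and 18.3 CPM (14.2 to 23.1), 4.98 times the yak T/NK-like level (3.20 to 7.91). Of the 30 yak T/NK-like F13A1 UMIs 16 lay in 1 cell, which weighs on that level and its ratios. Stromal-like cells of the cattle-yak gave 10 UMIs and 1.87 CPM (0.898 to 3.44), so the yak level was 9.76 times that of the cattle-yak (5.00 to 21.2). The class was a different mix in each library, made of clusters 12 and 14 in yak and 0, 6 and 9 in cattle-yak, with different leading genes. Yak unnamed cluster 7 came next at 12.03 CPM, from 7 UMIs. Per 100 C1Q UMIs, yak stromal-like cells had 250 F13A1 UMIs, yak macrophage-like cells 19.2 and yak T/NK-like cells 35.7. After thinning to 1000 UMIs, 1.48% of yak stromal-like cells had an F13A1 UMI, beside 0.198% of T/NK-like cells, with median depths of 3974 and 1939 before thinning.

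CSF1R was second in pericyte-like cells, with 13 UMIs and 9.51 CPM (5.07 to 16.3) in yak, 2.78 times the T/NK-like level (1.32 to 5.54). In cattle-yak pericyte-like cells it had 3 UMIs and 6.48 CPM (1.34 to 18.9). At equal depth this second place was not seen, since 0.407% (0.0103 to 2.24) of thinned yak pericyte-like cells and 0.340% of T/NK-like cells had a CSF1R UMI, with median depths of 5252 and 1939 before thinning, and 0 of 103 in cattle-yak. Yak pericyte-like cells had 1 C1Q UMI. CD68 was found in every class of at least 50 cells. Its next level was 9.12 CPM (6.74 to 12.1) in yak EC-like cells and 11.4 CPM (7.36 to 16.8) in cattle-yak unnamed cluster 1, led by ICAM5, NRK and EPHA3. Thinned shares of cells with a CD68 UMI were 0.968% (0.443 to 1.83) in yak EC-like and 0.312% (0.156 to 0.557) in yak T/NK-like cells, with median depths of 4135 and 1939 before thinning. By CPM of CD68, yak macrophage-like cells were at 5.29 times the yak EC-like level (3.37 to 8.25). Cattle-yak macrophage-like cells were at 4.49 times the level of cattle-yak unnamed cluster 1 (2.41 to 8.30).

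Within the macrophage-like class the genes were not found in every cell. At least 1 C1Q UMI was found in 119 of 216 yak cells (55.1%) and 61 of 98 cattle-yak cells (62.2%). Thinned to 1000 UMIs a cell, the shares were 47.4% in yak (91 of 192, 40.2 to 54.7) and 58.8% in cattle-yak (57 of 97, 48.3 to 68.7), intervals that overlap. In yak 59 cells with at least 10 C1Q UMIs (27.3% of the class) held 91.0% of its C1Q UMIs, and in cattle-yak 44 cells (44.9%) held 94.5%. The cells without any C1Q UMI were not shallow, with a median of 3076 UMIs in yak and 5577 in cattle-yak against 3497 and 3688.5 in those with at least 10.

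CSF1R had a UMI in 51.0% (43.7 to 58.3) of thinned yak cells and 47.4% (37.2 to 57.8) of cattle-yak cells. F13A1 was detected in 27.1% and 35.1%, MSR1 in 27.1% and 13.4%, CD163 in 7.29% and 19.6%, and CD68 in 6.25% and 7.22%. In T/NK-like cells these shares ran from 0.0922% to 0.369% for the 5 genes in both libraries. The C1q chains were found together more often than independent detection would give. C1QA and C1QB shared 29.7% of yak cells where 14.6% would be given by the product of their shares, and 40.2% of cattle-yak cells where the product is 22.9%. F13A1 and C1QA met in 15.1% of yak cells against 11.1%, and in 17.5% of cattle-yak cells against 17.7%. All shares are of cells of 1 library, which are not replicates.

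At least 3 of the 8 genes had a UMI in 117 of 216 yak macrophage-like cells and in 61 of 98 cattle-yak ones. Outside the class this was true of 6 of 10108 yak and 6 of 6994 cattle-yak cells. All 8 genes were found together in 3 yak and 4 cattle-yak cells, and none of them in 22 and 5.

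**Figure D2:**
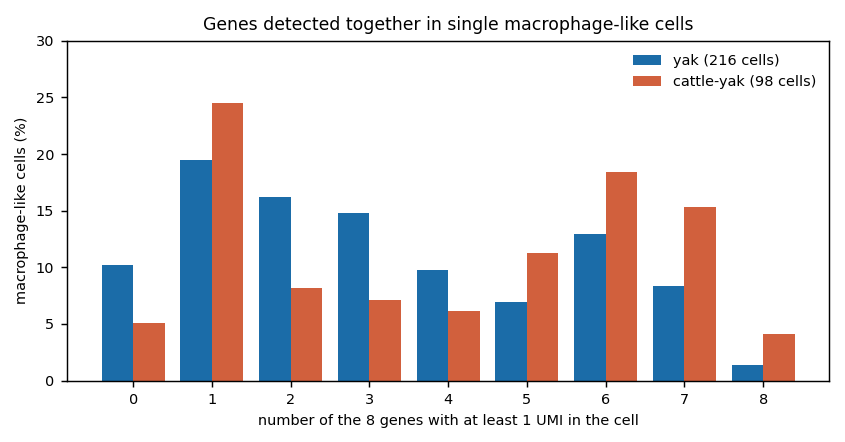
Share of macrophage-like cells (%) by the number of the 8 genes with at least 1 UMI, in 216 yak and 98 cattle-yak cells, from all UMIs without thinning. The distribution is spread, with 54.2% of yak and 62.2% of cattle-yak cells holding 3 or more of the genes.

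Sub-clusters, again made without the 8 genes, differed in C1q level, and in cattle-yak they separated cells with high C1q from cells with little. They are called Y0 to Y2 in yak and CY0 to CY2 in cattle-yak, and no cell type name was given to them. The summed C1Q level was 7658 CPM (7190 to 8148) in Y1 and 8278 CPM (7881 to 8689) in CY0. It was 2191 CPM in Y0, 2142 CPM in Y2 and 175 CPM in CY1. A C1Q UMI was found in 23 of 74 thinned cells of Y0, 35 of 78 of Y2 and 5 of 35 of CY1. Y0 and Y2 thus mixed cells with and cells without a C1Q UMI. The number of sub-clusters was a choice, and with a coarser one (resolution 0.25 in place of 0.5, tried after the data were seen) the highest yak level was 4018 CPM in 131 cells. A finer one (resolution 1) gave a lowest yak level of 251 CPM in 32 cells.

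Y1 held 42 cells led by small nuclear RNA, heat shock and histone features as well as STAB1 and the chemokine gene CXCL11. A C1Q UMI was found in 33 of its 40 thinned cells. CSF1R was at 1336 CPM, CD163 at 246 CPM (168 to 347), MSR1 at 430.1 CPM and F13A1 at 622 CPM. The haem-degrading enzyme gene HMOX1 was at 1797 CPM, beside 292 CPM in Y0 and 480.1 CPM in Y2.

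CY0 was led by CD163 itself, SLC11A1, TFEC and the C1q genes, and 52 of its 56 thinned cells had a C1Q UMI. It held all 83 CD163 UMIs of the cattle-yak class, at 421 CPM (335 to 522), with CSF1R at 1333 CPM, MSR1 at 385 CPM and F13A1 at 639 CPM. HMOX1 was at 1262 CPM and SLC40A1, the iron exporter gene, at 355 CPM. The calgranulin gene S100A12 was also counted, at 613 CPM.

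Y2 held 85 cells led by DMP1, CCK, MEGF10 and the apolipoprotein gene APOE. CSF1R was high at 1189 CPM (1063 to 1326) and MSR1 stood at 410.0 CPM. By contrast CD163 was at 18.5 CPM (5.996 to 43.1) and F13A1 at 129 CPM (90.04 to 179.8), below the intervals of Y0 and Y1 for F13A1. Complement C3, the central component that C1q activation leads to, was at 2179 CPM in Y2, beside 391 CPM in Y0 and 845 CPM in Y1.

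Y0 held 89 cells led by PLBD1, S100A4 and LGALS3. F13A1 was at its highest here, 903 CPM (810.4 to 1002), while CSF1R was at 419 CPM (357 to 489) and MSR1 at 168 CPM. Genes on the marker lists of other blood cells stood beside these values, which does not name the cells. The neutrophil list summed to 1922 CPM in Y0, against 7.68 CPM in Y1 and 33.2 CPM in Y2. S100A12 alone was at 1766 CPM in Y0, while MMP9 of that list had 0 counts. The mast cell list was FCER1A only, at 225 CPM. The dendritic cell list was at 204 CPM in Y0, with FLT3 at 95.7 and CD1E at 85.3 CPM, and at 46.1 and 48.0 CPM in Y1 and Y2.

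CY1 held 36 cells led by CLNK, DNASE1L3, C1orf54 and WDFY4. Its C1q level of 175 CPM came with CSF1R at 165 CPM (115 to 231), MSR1 at 34.1 CPM and CD163 at 0 counts, which allows a level of up to 14.6 CPM. F13A1 was nevertheless at 701 CPM (591 to 825), an interval that overlaps that of CY0. The dendritic list was highest here, at 365 CPM, with FLT3 at 156, CD1E at 97.3 and CLEC9A at 87.6 CPM. In CY0, FLT3 and CLEC9A had 0 counts, while CD1E was at 127 CPM and so did not set CY1 apart. Of the same list, ZBTB46 had 1 UMI and CCR7 had 0 in CY1. The macrophage naming list was at 847 CPM in CY1, beside 2540 CPM in CY0. CY2 held only 6 cells, led by IGHM and DERL3, with 0 C1Q UMIs in any thinned cell.

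F13A1 and C1q were thus ordered differently across the sub-clusters, and so were CSF1R and CD163. Over the whole class the dendritic list was at 124 CPM in yak and 244 CPM in cattle-yak, and the neutrophil list at 956 and 359.7 CPM. S100A12 alone made up 90.8% and 79.4% of the neutrophil list. CSF3R was alike inside and outside the class, at 53.3 against 54.2 CPM in yak and 53.4 against 45.5 CPM in cattle-yak. With no limit on counts, 3 of 5 neutrophil genes in yak and 2 in cattle-yak were higher by a log2 ratio of at least 1. Of 7 dendritic genes 4 and 5 were, with ZBTB46 not among them. Several of these rested on few UMIs, such as S100A9 on 9 and CLEC9A on 5 in yak, and XCR1 on 1 in yak and 2 in cattle-yak. Over all genes with at least 50 counts, 8.28% were higher in the yak class and 10.1% in the cattle-yak class. Mast cell markers CPA3, MS4A2, HDC and HPGDS were at 0 in both. The part of these other markers in the levels of the class was not tested.

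**Figure D3:**
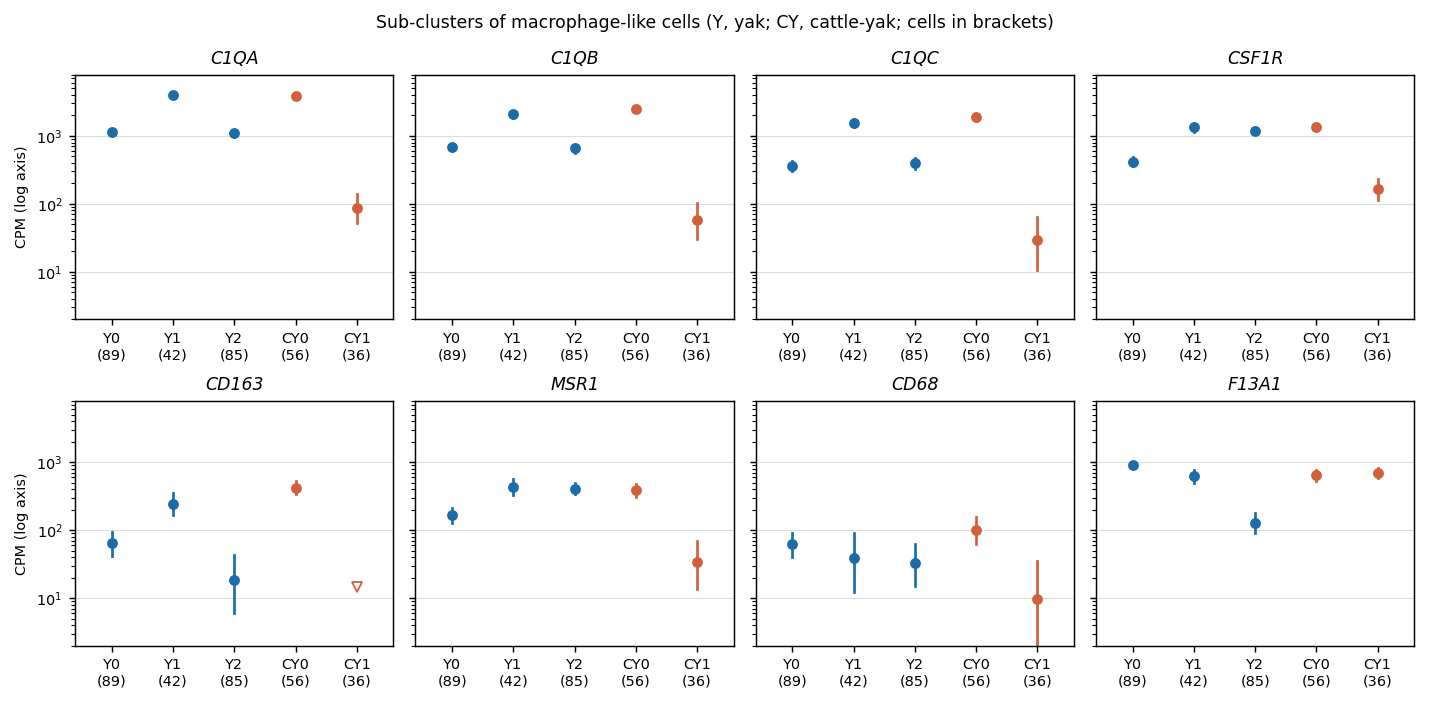
CPM (log axis) of the 8 genes in the sub-clusters of macrophage-like cells, with exact 95% Poisson intervals and numbers of cells in brackets. The open triangle is a count of 0 drawn at the level of 3 counts. C1QA is at 4009 CPM in Y1 and 3883 CPM in CY0 but 87.6 CPM in CY1, while F13A1 is lowest in Y2 at 129 CPM. CY2, with 6 cells, is not drawn.

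Between the libraries, the macrophage-like cells differed by a fold of at least 2 in CD163 alone of the 8 genes. CD163 was higher in the cattle-yak library, the C1q genes were slightly higher, and CSF1R and MSR1 were slightly lower. Among all 2710 genes with at least 50 counts, 2.03% were higher in cattle-yak by that limit and 5.17% were lower, and of the members 1 of 8 was higher and 0 were lower. The median log2 ratio of all genes was -0.17, and that of the members was 0.14.

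CD163 gave 62 UMIs in yak and 83 in cattle-yak, a log2 ratio of 1.28 (plain interval 0.80 to 1.79). CSF1R differed by -0.28 (-0.48 to -0.08) and MSR1 by -0.58 (-0.95 to -0.21). C1QA, C1QB and C1QC differed by 0.18 (0.05 to 0.31), 0.39 (0.22 to 0.55) and 0.61 (0.41 to 0.81). The summed C1Q level was 3078 CPM (2956 to 3203) in yak and 3873 CPM (3689 to 4063) in cattle-yak, a log2 ratio of 0.33 (0.24 to 0.42). For F13A1, at 0.09 (-0.13 to 0.31), and CD68, at 0.08 (-0.75 to 0.88), the interval of the ratio held 0, so no difference was detectable at this depth.

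These ratios rested on which cells made up the class. Leaving out sub-clusters whose naming markers summed to under 1000 CPM, a limit chosen after the data were seen, removed CY1 and CY2 and no yak sub-cluster. The log2 ratio of the summed C1Q genes then rose from 0.33 to 1.43, and 5 of 8 genes passed the fold in place of 1. Of all genes 98 passed upward and 277 downward. How many genes had enough counts under this choice is not given here, so no share stands beside the 5 of 8. CSF1R moved from -0.28 to 0.67 and MSR1 from -0.58 to 0.39, a change of direction, CD68 moved from 0.08 to 1.06, past the fold, and F13A1 was at 0.11. Set side by side, the sub-clusters richest in C1q, Y1 and CY0, were at 7658 and 8278 CPM for the summed C1Q genes. For CD163 they were at 246 CPM (168 to 347) and 421 CPM (335 to 522). These separate intervals overlap, which does not show equal levels, and no interval of their ratio was computed. Without replicates it cannot be told apart whether the mix of cells belongs to the cross, the animal or the preparation.

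**Figure D4:**
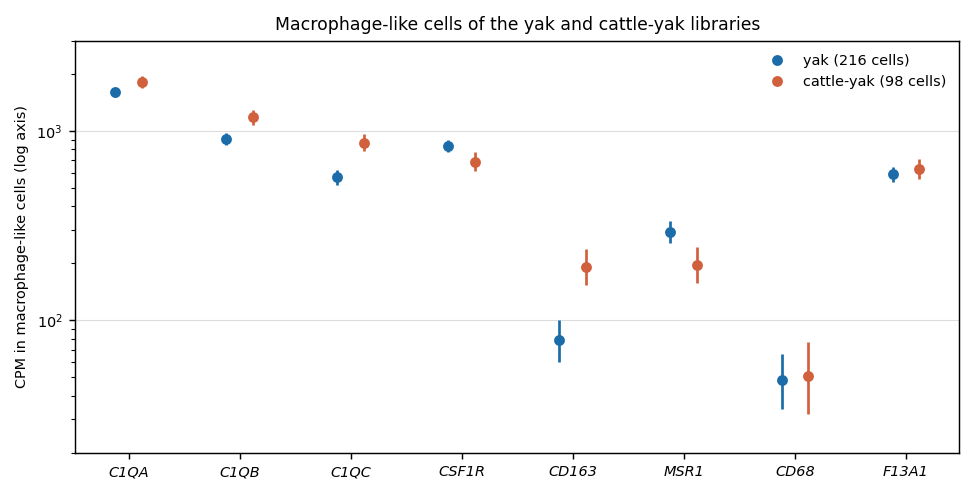
CPM (log axis) of the 8 genes in macrophage-like cells of the yak (216 cells) and cattle-yak (98 cells) libraries, with exact 95% Poisson intervals for counting error. CD163 shows the widest gap, 78.7 against 193 CPM, while CD68 and F13A1 have overlapping intervals.

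The rest of the complement system was divided between cell classes. The 87 pathway genes listed covered complement and also the CSF1 axis, scavenger receptors, iron handling, lysosomes and transglutaminases. Over all these lists 58 genes had a symbol in the annotation, and 38 in yak and 37 in cattle-yak had enough counts. Of those, 14 were higher and 11 lower in macrophage-like cells in yak (8.28% and 31.6% of all genes), and 12 and 10 in cattle-yak (10.1% and 33.3%). Of the complement genes, C2, C3, CFP and ITGB2 were higher in both libraries, and C1S, C7, SERPING1 and CD93 were lower in both. C5 was also called lower in yak, on 0 counts in the class, and had too few counts in cattle-yak. COLEC11 passed in neither direction. C2 was at 16.5 CPM in yak macrophage-like cells, from 13 UMIs, and higher in yak unnamed cluster 21 (49.2 CPM) and stromal-like cells (32.6 CPM), while in cattle-yak the class led at 44.1 CPM. CFP, which encodes properdin, the stabiliser of the alternative pathway convertase, was at 91.4 CPM in yak and 165 CPM in cattle-yak against 1.44 and 1.66 CPM in other cells. FCN1, the ficolin gene of the lectin pathway, had 28 of its 29 yak UMIs and all 11 cattle-yak UMIs in the class.

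C1S, a protease gene of the C1 complex, and the inhibitor gene SERPING1 were highest in other classes, while C1R was not analysed here. C1S was highest in stromal-like cells of both libraries, at 263 and 203 CPM, and stood at 12.7 and 9.28 CPM in macrophage-like cells. SERPING1, the C1 inhibitor gene, was at 2467 and 1728 CPM in stromal-like cells and at 112 and 109 CPM in macrophage-like ones. The terminal component gene C7 was at 529 and 289 CPM in stromal-like cells, and at 26.7 and 2.32 CPM in macrophage-like ones. CD93, named early on as a C1q receptor, was highest in EC-like cells, at 31.6 and 22.9 CPM, with 1 UMI in yak and 0 UMIs in cattle-yak macrophage-like cells. The feature named COLEC11, a lectin gene, was counted in every class of at least 50 cells, from 2131 to 4029 CPM in yak and from 1337 to 4081 CPM in cattle-yak. Its log2 ratio of macrophage-like to other cells was -0.16 in yak and 0.18 in cattle-yak. Whether these counts come from the lectin transcript was not tested.

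C3 was the only complement gene tested between the libraries that passed the fold. It gave 851 UMIs and 1080.5 CPM in yak macrophage-like cells and 98 UMIs and 227 CPM in cattle-yak ones, a log2 ratio of -2.24 (plain interval -2.57 to -1.95). It was also lower in other cells, 23.0 against 10.2 CPM. Both CY0 (203 CPM) and CY1 (282 CPM) lay below every yak sub-cluster. The integrin chain gene ITGB2, shared by complement receptors 3 and 4, was at 329 and 244 CPM.

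For the receptor ligands, CSF1 was broadly expressed and led by stromal-like cells at 176 CPM in yak and 115 CPM in cattle-yak, with 103 and 83.5 CPM in macrophage-like cells. IL34 had only 10 UMIs in yak and 2 in cattle-yak, and 0 in macrophage-like cells. CSF1 itself did not pass the fold between macrophage-like and other cells in either library.

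Among other scavenger receptors, CD36, SCARB1 and MERTK were higher in macrophage-like cells of both libraries, and SCARA3 and SCARA5 were lower in both. MERTK rested on 7 UMIs in the yak class. CD36 was at 33.0 CPM in the yak class and 76.6 CPM in the cattle-yak class, a log2 ratio of 1.19 (plain interval 0.43 to 2.01). HMOX1 (606 and 659 CPM) and SLC40A1 (100.3 and 167 CPM), which act on iron from haemoglobin that CD163 takes up, were both higher in the class in both libraries. They were 2 of 5 genes of the iron list tested, and BLVRA, BLVRB and TFRC did not pass in either library. Of 7 lysosomal genes tested beside CD68, 3 were higher and 1 lower in yak (8.28% and 31.6% of all genes), and 2 were higher and 1 lower in cattle-yak (10.1% and 33.3%). PSAP was at 88.9 and 107 CPM and LIPA at 36.8 and 37.1 CPM in the class. The gene called lower in both was CTSL, which encodes cathepsin L and had 0 counts in macrophage-like cells. Its intervals there reached 4.68 CPM in yak and 8.56 CPM in cattle-yak. Other cells were at 4.14 and 3.75 CPM, inside these intervals, so a lower level was not resolved at this depth. CTSZ differed between the libraries, at 57.1 and 11.6 CPM.

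**Figure D5:**
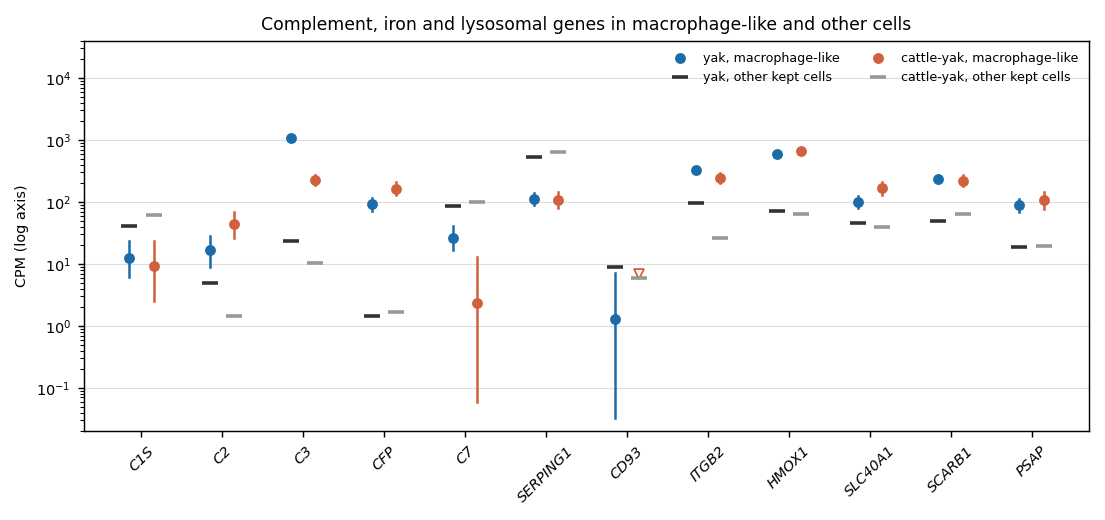
CPM (log axis) of complement, iron and lysosomal genes in macrophage-like cells (dots with exact 95% Poisson intervals) and in other kept cells (dashes), by library. The open triangle is 0 counts drawn at the level of 3 counts. C3 is at 1080.5 CPM in yak and 227 CPM in cattle-yak, and C1S, C7 and SERPING1 stand below their level in other cells.

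The genes whose levels most resembled those of the members were named over 43 clusters of at least 20 cells. Pearson correlations of log2(CPM + 1) were taken over 10970 genes as a description only, since clusters of 1 library share its depth and free RNA. The chemokine gene CXCL8 was the closest to the summed C1Q genes (0.858), to CSF1R (0.862) and to CD163 (0.835), with the interferon regulatory factor gene IRF5 also near CSF1R (0.822) and CLEC12A near CD163 (0.820). For F13A1 the closest was CD1E (0.821), a lipid antigen-presenting molecule gene of the dendritic cell list, followed by CXCL8 (0.820). Among the members themselves F13A1 lay nearer to CSF1R (0.838) than to the summed C1Q genes (0.725), and CD68 was the least like C1q (0.425). Most of these clusters were not macrophage-like. Among thinned yak macrophage-like cells the order was the other way. There F13A1 met CSF1R at 1.02 times the product of their shares, and C1QA at 1.36 times. In cattle-yak the values were 1.05 and 0.990.

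In a RefSeq gene table of another yak assembly (Bosgru_T2T1.0), 7 of the 8 genes were found, and C1QA, C1QC and C1QB lay side by side between EPHA8 and EPHB2. CSF1R lay between HMGXB3 and PDGFRB, the gene of a related receptor kinase that is used as a pericyte marker. CD163 was not matched.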

How the data were processed

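Per the file headers the authors deposited raw counts, whole numbers of UMIs per gene and cell from Cell Ranger 5.0.0, while the submitters' processing notes name Cell Ranger 2.1.1 and the build BosGru3.0. All values were computed from these counts with Python 3.11.15, scanpy 1.11.5 and scipy 1.17.1. Cells with a mitochondrial share of 30% or more, or with UMIs or genes above the mean plus 2 SD, were left out. Each library was clustered alone (2000 variable genes, 30 components, Leiden resolution 1) without the 8 genes and the listed pathway genes, and a cluster was named where at least 3 markers of a list were higher by a log2 ratio of at least 1 and found in at least 10% of its cells. That list also had to hold more such markers than any other list, and no other list could have more genes among the cluster's 10 leading genes, so some clusters with many markers stayed unnamed. A cluster of very low depth with no marker among those genes stayed unnamed too. By this rule 6 macrophage markers counted in yak and 9 in cattle-yak. Sub-clusters used 500 variable genes and resolution 0.5. UMIs were summed per class and given as CPM. A gene was compared with at least 50 counts, as a difference of log2(CPM + 1). Genes of the cell type marker lists were counted as higher without that limit. Intervals of ratios are exact conditional ones for the plain ratio of CPM, with nothing added. A count of 0 allows up to 3 counts. Shares of cells were also given after thinning each cell to 1000 UMIs, leaving out 24 yak and 1 cattle-yak macrophage-like cells. With 1 library per group no test was run, no p-value is given, and UMIs of 1 cell are not independent, so intervals are too narrow. Scrublet marked 0 yak cells, so its calls were of no use there, and 251 cattle-yak cells, of which 0 were macrophage-like. By score, 27 of 216 yak and 13 of 98 cattle-yak macrophage-like cells lay in the highest 10% of their library. No cell was removed as a doublet. Genes were named by membership or by the fixed lists, and for likeness by the 3 highest correlations. The 8 genes and all lists were chosen with earlier results of these data known. Scripts were tested on simulated counts, with a 4-fold rise put into 200 genes. In macrophage-like against other cells, 95% of these were called higher in yak and 94.5% in cattle-yak, and 100% between the libraries. Of unchanged genes, 8.50%, 14.0% and 1.03% were called in either direction. A call alone thus does not set a difference apart from counting error. Alternatives were other filters, pseudocounts, limits, resolutions, weights and scalings.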

Additional observations from a re-analysis of the deposited data

How the results depend on the processing

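No paired analysis was possible because each group had 1 library, and for the same reason none could be left out in turn. Of 196 alternative values of the comparisons 164 stayed near the reported ones, 32 moved and 0 were reversed. Only the log2 ratio of the summed C1Q genes could be reversed, since counts and shares have no sign, and it stayed positive. Of 456 values of single genes, 205 moved and 0 that had passed the fold changed sign. The log2 ratio of the summed C1Q genes between the libraries was 0.16 with a mitochondrial limit of 20%, 0.20 at resolution 2, 0.54 with cells weighted equally, 0.51 with the median of all genes set to 0, and, in alternatives added after the data were seen, 0.46 without mitochondrial and rRNA features and 1.43 without the sub-clusters low in naming markers. The cause was not tested. That last choice gave 5 members higher, 98 genes higher and 277 lower in cattle-yak, out of a number of genes not given here. It also gave a thinned share of cells with a C1Q UMI of 94.6%. Without thinning the yak share was 55.1%. CD163 passed the fold under all 12 alternatives at a log2 ratio of at least 1, from 1.21 to 2.40, while CSF1R and MSR1 were each positive under 1 of 12. These alternatives did not set Y1 against CY0, whose separate CD163 intervals overlap and whose ratio was given no interval. A pseudocount of 5 left 2017 yak and 1994 cattle-yak genes lower in macrophage-like cells. Without a count filter 2062 cattle-yak genes were higher in the class, and between the libraries 1723 were higher and 4001 lower. With at least 200 counts, 686 genes were higher and 2669 lower in yak, 666 and 2136 in cattle-yak, and 12 and 29 between the libraries, since fewer genes were compared, with 5 members higher in cattle-yak macrophage-like cells and 0 members between the libraries. A log2 limit of 2 gave 343 and 1639 genes in yak, 368 and 1933 in cattle-yak, and 8 and 25 between the libraries with 0 members. With the median of all genes set to 0, 83 genes were higher in cattle-yak. Levels resting on under 10 UMIs are limited by depth.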

Other observations

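Among the cells left out of the comparisons, 875 yak cells with a mitochondrial share of 30% or more held 107 UMIs of the 8 genes (58.6 CPM), and 24 of them were macrophage-like when clustered with the rest. In cattle-yak 1268 such cells held 87 UMIs (18.0 CPM), and 11 were macrophage-like. Cells above the limit on UMIs or genes held 386 UMIs in yak (792 cells, 17.0 CPM) and 133 in cattle-yak (570 cells, 10.5 CPM).

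The complement receptor gene VSIG4, known from tissue-resident macrophages, had all of its 10 yak and 2 cattle-yak UMIs in macrophage-like cells. ITGAM, the alpha chain of complement receptor 3, had 31 of 35 yak UMIs there and all 6 cattle-yak UMIs. FCN1 was found in Y0 (28 UMIs) and CY0 (11 UMIs), with 0 in Y1 and Y2. The spermatocyte marker list was at 949.7 CPM in yak and 1037 CPM in cattle-yak macrophage-like cells, of which HORMAD1 alone made up 90.6% (861 CPM) and 94.9% (984 CPM). TEX12 was the other gene of this list higher in the class by a log2 ratio of at least 1. It was at 76.2 against 36.6 CPM in yak and 48.7 against 10.4 CPM in cattle-yak. SYCP3 and DMC1 were at 0 in macrophage-like cells of both libraries. The source of the HORMAD1 counts was not tested.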
